A study of Mus musculus with 2 samples.

Results

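The metallothionein genes Mt1, Mt2 and Mt3 were followed in T cells that had been sorted from mouse melanomas and sequenced as single cells. They were picked by name, as 3 of the 4 metallothionein genes among the 31053 mouse genes of the count matrix, and they were picked because Mt1 and Mt2 had already been seen to lead a group of CD8 cells with signs of exhaustion in these same data. Their high level in CD8 cells that carry exhaustion genes is therefore given as a description, and no test was made on it. The fourth gene, Mt4, which is known from stratified epithelium, had 0 UMIs (unique molecular identifiers, 1 for each captured transcript) in every T cell class described here.

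Metallothioneins are small, cysteine-rich proteins that bind zinc and copper and buffer the free zinc of the cell. Mt1 and Mt2 are made in most tissues, and their transcription rises when zinc reaches the metal-sensing factor MTF-1 and also with glucocorticoids, low oxygen and oxidative stress. Mt3 is best known from the brain. In T cells, Mt1 and Mt2 are known as genes of activated and of dysfunctional tumor-infiltrating cells.

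The T cells came from C57BL/6 mice that carried B16, a transplantable melanoma cell line, or B16-IL33, the same line made to express the alarmin IL-33. Tumors were taken on day 9 after inoculation. Sorted T cells of both tumors were marked with hashtag antibodies and pooled into 1 droplet library, from which gene expression, hashtags and T cell receptors were read. There is 1 pooled library and no replicate of it, and the hashtags were too sparse to split it into samples. Cells are therefore described and nothing is tested, and every 95% interval below covers counting error only.

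Of 14035 barcodes, 9078 had 200 to 2500 detected genes and under 5% mitochondrial UMIs, with a median of 2467 UMIs. Classes were set by counts of a few lineage genes. CD8 cells (1260) had more Cd8a and Cd8b1 than Cd4 and Foxp3 UMIs. Treg cells (2609), regulatory T cells, had Foxp3 and no Cd8 UMI. Tconv cells (1769), the remaining CD4 cells, had Cd4 and neither Foxp3 nor Cd8. NKT cells (81) had Zbtb16, the transcription factor of innate-like T cells, and neither Foxp3 nor Cd8, and 21 of them also met the Tconv rule. A further 3380 barcodes met no rule. The classes held T cell transcripts by genes the rules did not use. The 5 CD3 and receptor constant genes summed to between 3130 and 4035 CPM (UMIs of the gene per 1e6 UMIs) in the 4 lineages and none of the 5 was at 0. Barcodes of no class held 3076 CPM of these genes, so the sum does not set the classes apart from them. The NKT name is met in part: an alpha chain was assembled for 36 of the 81 cells, and 20 of these carried the invariant chain of type I NKT cells.

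The sort did not leave T cells alone in the pool. Among barcodes of no class and with no CD3 UMI, 131 carried macrophage or monocyte markers and held 1239 CPM of Mt1 and Mt2 summed (1150 to 1333), and 8 carried melanoma markers and held 7189 CPM (6146 to 8358). Barcodes under 200 genes, which can hold free RNA, held 536 CPM (461 to 620). Each of these levels exceeds that of each of the 4 T cell lineages, so myeloid and melanoma transcripts are given beside the results they could touch.

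The members lie side by side on chromosome 8 of the mouse, all on the forward strand. In GENCODE vM21 (GRCm38), Mt3 (ENSMUSG00000031760) spans chr8:94152607-94154146, Mt2 (ENSMUSG00000031762) spans chr8:94172664-94173568 and Mt1 (ENSMUSG00000031765) spans chr8:94179082-94180327, with 5513 bases between Mt2 and Mt1. Mt4 (ENSMUSG00000031757) precedes them at chr8:94137197-94139031. Because Mt1 and Mt2 were found together in cells more often than their shares give, the members' start regions are shown where they hold the core of the metal response element, the element that MTF-1 binds. The sequences are RefSeq's (GRCm38.p6), each is 30 bases of the forward strand, and capitals mark a match to TGCACNC or TGCGCNC on either strand, found in the 250 bases before and the 50 bases after the RefSeq start.
Mt1, chr8:94179055-94179084: cggtcccgctgTGCACACtggcgctccagg
Mt1, chr8:94179089-94179118: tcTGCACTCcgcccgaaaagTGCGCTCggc
Mt2, chr8:94172384-94172413: agcatcgcctcTGCACCCggcccctcgggc
Mt2, chr8:94172479-94172508: cgcagacccttTGCGCTCagctcctttgct
Mt2, chr8:94172557-94172586: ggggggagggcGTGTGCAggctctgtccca
Mt2, chr8:94172611-94172640: gaattcgggtcGTGCGCAggcccaggggcg
Mt3, chr8:94152623-94152652: cgggacagcagTGCACACacacggagagca

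Mt2 held 4 such cores and Mt1 held 3, against 1 each for Mt3 and Mt4. Of 32851 RefSeq start regions of the same length, 25.7% held at least 1 core, 1.97% at least 3 and 0.517% at least 4. The hypoxia response element core, ACGTG or GCGTG on either strand, occurred 2 times each in the Mt1 and Mt2 regions and 0 times in that of Mt3, and 43.8% of all regions held at least 1. The antioxidant response element core TGACNNNGC occurred 1 time in the Mt2 region and 0 times in the others, and 12.4% of all regions held it. The glucocorticoid response element consensus (both strands) was in none of the 4 regions and in 3 of all. These are matches of letters, and no binding was measured.

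Mt1 supplied most metallothionein UMIs in each of the 4 lineages. It stood at 237 CPM in CD8 cells (224 to 251), 267 in Treg cells (256 to 279), 77.9 in Tconv cells (70.4 to 86.0) and 10.8 in NKT cells (2.22 to 31.5). Mt2 stood at 42.5 CPM in CD8 cells (37.1 to 48.6), 24.3 in Treg cells (21.1 to 27.9) and 9.56 in Tconv cells (7.05 to 12.7), and had 0 UMIs in NKT cells. Mt3 stood at 23.7 CPM in CD8 cells (19.7 to 28.4), 32.6 in Treg cells (28.8 to 36.7) and 13.3 in Tconv cells (10.3 to 16.9), and had 0 UMIs in NKT cells. These are CPM values from the 5′ end of transcripts and are not scaled to length. The 3 genes thus did not rank the lineages alike. CD8 cells held less Mt1 than Treg cells (0.886 times, 0.825 to 0.951), more Mt2 (1.75 times, 1.44 to 2.13) and less Mt3 (0.729 times, 0.583 to 0.908).

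**Figure D1:**
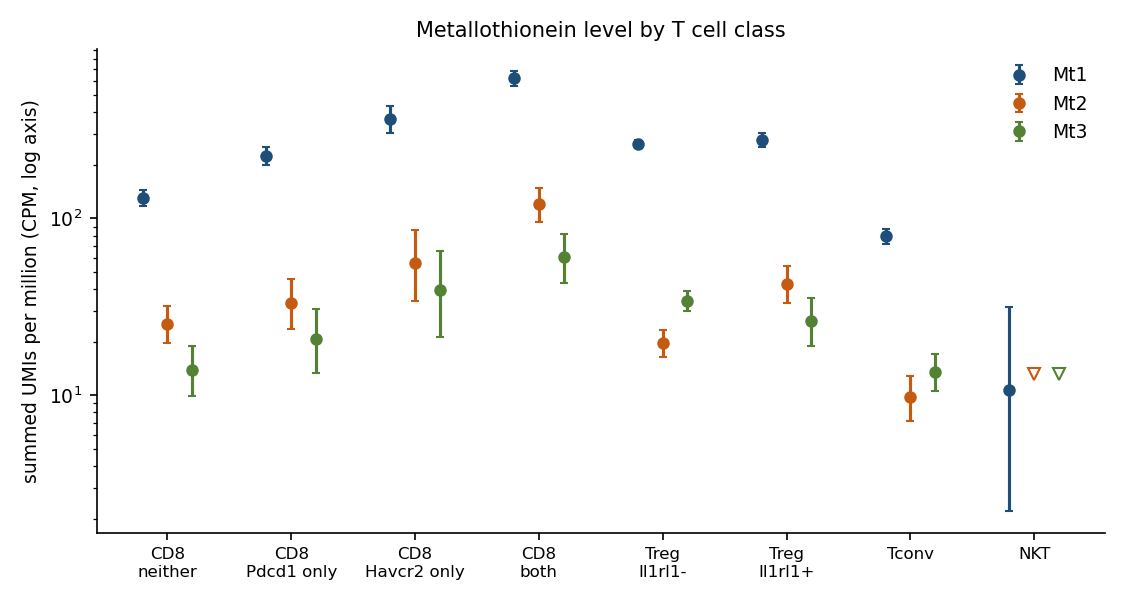
Level of Mt1, Mt2 and Mt3 in 8 classes of T cells that share no cell, as summed UMIs in CPM on a log axis, with exact Poisson 95% intervals that cover counting error only. Open triangles mark the upper limit for genes with 0 UMIs. Mt1 climbs from 130 CPM in CD8 cells with neither Pdcd1 nor Havcr2 to 619 CPM in those with both, and Mt1 in NKT cells, at 10.8 CPM, lies below the other classes.

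Over 8 classes that share no cell, the summed Mt1 and Mt2 level ran in this order. CD8 cells with both Pdcd1 and Havcr2 UMIs were highest at 739 CPM (677 to 806), and CD8 cells with Havcr2 only followed at 419 (355 to 492). Treg cells with Il1rl1 stood at 320 (293 to 349), Treg cells without it at 285 (272 to 298) and CD8 cells with Pdcd1 only at 259 (231 to 289). CD8 cells with neither gene stood at 156 (141 to 171), Tconv cells without Zbtb16 at 88.9 (80.8 to 97.6) and NKT cells at 10.8. The intervals of the 3 classes in the middle overlap from neighbour to neighbour, and the others do not touch. The first place rested on 1 cell, which held 225 of the 516 UMIs of its class. Without the richest cell of each class, CD8 cells with both receptors stood at 423 CPM (376 to 475) and those with Havcr2 only at 352 (293 to 420), a ratio of 1.20 (0.972 to 1.5), and their intervals overlap.

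Among CD8 cells, the classes were set by Pdcd1, which encodes PD-1, and Havcr2, which encodes TIM-3, a pair of inhibitory receptors that mark exhausted cells when found together. In CD8 cells with both receptors (102 cells) Mt1 stood at 619 CPM (562 to 680), against 130 (117 to 144) in cells with neither (819 cells). Mt2 stood at 120 CPM (96.0 to 149) against 25.4 (19.9 to 32.1), and Mt3 at 60.2 (43.4 to 81.3) against 14.0 (9.93 to 19.1). Over all cells the 3 genes thus differed by about the same factor, 4.75 for Mt1 (4.12 to 5.47), 4.73 for Mt2 (3.41 to 6.58) and 4.31 for Mt3 (2.72 to 6.84). A single cell with both receptors held 188 of the 432 Mt1 and 37 of the 84 Mt2 UMIs, but 3 of the 42 Mt3 UMIs. The factor of each gene without that cell was not computed. Havcr2 alone went with a larger step than Pdcd1 alone: Mt1 and Mt2 summed were 2.69 times (2.22 to 3.25) the level of cells with neither in the former and 1.66 times (1.43 to 1.93) in the latter, and the former held 1.62 times (1.32 to 1.97) the level of the latter. In cells with Pdcd1 only, 1 cell held 119 of the 312 UMIs. Without the richest cell of each class, cells with Pdcd1 only stood at 162 CPM (140 to 187) and cells with neither at 129 (116 to 143), a ratio of 1.26 (1.05 to 1.5), while Havcr2 only over neither was 2.73 (2.21 to 3.36).

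Among 5785 genes with at least 50 UMIs over the 2 outer classes, 2.89% stood at least 2-fold higher in cells with both receptors, and Mt1, Mt2 and Mt3 ranked 18, 19 and 20 of 5785. The genes were picked with such a contrast in view, so nothing is read from that rank. The classes also differ in depth, with a median of 6925 UMIs in cells with both receptors and 2977 in cells with neither, since a cell with more UMIs has more chances to show both genes. Counted after each cell was thinned to 1500 UMIs, with the classes left as they were, the ratio of Mt1 and Mt2 was 5.33 (4.0 to 7.09). Where the thinned cells were classed anew, only 10 cells with both receptors were left, with 1 Mt1 or Mt2 UMI among them, and the ratio was 0.477 (0.0120 to 2.69). That interval lies below the ratio of 5.33 seen with the classes left as they were and that of 4.74 without thinning, but it covers counting error only. Because a few cells held most of these UMIs, 10 cells are too few to show or exclude the contrast at that depth.

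Myeloid markers moved both ways along this order. The 6 macrophage and monocyte genes summed to 186 CPM in CD8 cells with both receptors and 227 CPM in cells with neither, with Adgre1 at 0 in the former. Lyz2, the most abundant, stood at 61.6 and 165 CPM, but C1qa stood at 27.2 and 8.24, C1qb at 34.4 and 15 and Apoe at 58.7 and 27.2 CPM. The 3 antigen presenting genes summed to 78.8 and 256 CPM. The 5 melanoma genes stood at 7.16 and 14.0 CPM, and 2 of them were at 0 in cells with both receptors. The part of these transcripts in the Mt levels was not tested beyond the following value. Without the 34 of 102 cells with both receptors and 156 of 819 with neither that held a UMI of Lyz2, Cxcl2, Spp1, Arg1, Ccl6, Ctsl, H2-Aa or H2-Ab1, a set picked after seeing the data, the ratio was 3.35 (2.72 to 4.12) for Mt1 and Mt2 and 4.50 (2.51 to 8.06) for Mt3. The order at the top then turned: CD8 cells with Havcr2 only (62 cells) stood at 482 CPM of Mt1 and Mt2 (403 to 572) and those with both receptors at 355 (302 to 414). These 2 intervals overlap. Leaving out these cells also removed the richest cell with both receptors, with Pdcd1 only and with neither, but not that with Havcr2 only. The highest count left was 43 UMIs with both receptors, against 225 before. These values are thus not separate from those without the richest cell of each class. With no upper limit on detected genes the ratio of both over neither was 2.70 (2.53 to 2.87).

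A few cells carried most of the signal. Of 1260 CD8 cells, 77.1% had no Mt1 or Mt2 UMI, and the 10 richest cells held 43.5% of all such UMIs. The richest single cell had 188 Mt1, 37 Mt2 and 3 Mt3 UMIs, which was 2.03% of its 11088 UMIs, and it carried both Pdcd1 and Havcr2. The next cells had 119 and 77 Mt1 and Mt2 UMIs. Treg cells were less uneven, with 16.9% of UMIs in the 10 richest of 2609 cells. The richest 5% of cells held 77.7% of the UMIs in CD8, 63.3% in Treg and 67.0% in Tconv cells. Without the 1 richest cell of each class the ratio of CD8 cells with both receptors over neither was 3.29 (2.81 to 3.85), and without the 10 richest it was 3.08 (2.46 to 3.85).

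**Figure D2:**
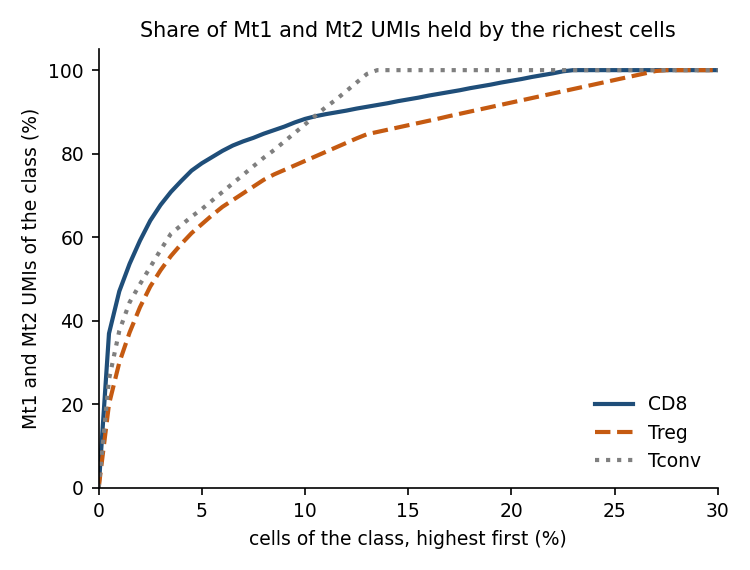
Share of all Mt1 and Mt2 UMIs of a lineage (y axis, percent) that is held by its richest cells (x axis, percent of cells, highest first), for CD8, Treg and Tconv cells. The richest 5% of CD8 cells hold 77.7% of the UMIs, and each curve reaches 100% where cells with no UMI begin.

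How often the genes were seen gave another view of the lineages. After thinning to 1500 UMIs, 12.9% of 1151 CD8 cells had a Mt1 or Mt2 UMI (11 to 14.9, Clopper-Pearson), as did 19.8% of 2155 Treg cells (18.1 to 21.5) and 7.05% of 1447 Tconv cells (5.78 to 8.49). Only 1 of 79 NKT cells did, or 1.27% (0.0320 to 6.85). Thinning left out 109 CD8, 454 Treg, 322 Tconv and 2 NKT cells, and without it the shares were 22.9%, 27.2%, 13.2% and 3.70%. Within CD8 cells the thinned share was 9.68% with neither receptor (7.63 to 12.1), 13.3% with Pdcd1 only (9.30 to 18.1), 18.2% with Havcr2 only (10.3 to 28.6) and 30.4% with both (21.7 to 40.3). No class here is known to lack Mt1, so the NKT share, at a median of 2939 UMIs against 3462 in CD8 cells, is the lowest level against which these shares can be read.

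CD8 and Treg cells changed places with the way of counting. Their ratio of summed Mt1 and Mt2 levels was 0.958 (0.897 to 1.02) over all cells, 0.611 (0.537 to 0.694) after thinning, 0.660 (0.607 to 0.717) without the 10 richest cells of each and 1.49 (1.44 to 1.55) with no upper limit on detected genes. CD8 cells over Tconv cells gave 3.20 (2.87 to 3.57), and Treg over Tconv cells gave 3.34 (3.01 to 3.70). For Mt3 the same ratios were 1.78 (1.31 to 2.44) and 2.44 (1.86 to 3.24). CD8 cells with neither receptor still held 1.78 times (1.56 to 2.04) the Mt1 and Mt2 level of Tconv cells, whereas their Mt3 level differed by 1.05 times (0.686 to 1.58).

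Treg cells were split by Il1rl1, which encodes ST2, the receptor of IL-33. Mt1 stood at 277 CPM (252 to 304) in 504 cells with Il1rl1 and at 265 (253 to 278) in 2105 without, a ratio of 1.05 (0.941 to 1.16). Mt2 stood at 42.7 CPM (33.3 to 54.0) and 19.8 (16.5 to 23.5), a ratio of 2.16 (1.59 to 2.91), while Mt3 stood at 26.3 (19.0 to 35.4) and 34.1 (29.8 to 38.9), a ratio of 0.770 (0.542 to 1.07). Of 8379 genes compared, 0.776% stood at least 2-fold higher in cells with Il1rl1, and of the members only Mt2 did. It ranked 47, against 3360 for Mt1 and 7238 for Mt3. The share of thinned cells with a Mt2 UMI was 4.42% (2.68 to 6.81) and 3.13% (2.36 to 4.06), so in the count of cells the intervals overlap. The summed Mt1 and Mt2 ratio, 1.12 (1.02 to 1.24), was 0.818 (0.720 to 0.928) without the 10 richest cells of each class. Macrophage markers were lower with Il1rl1, at 67.8 CPM against 190, and without cells with a myeloid UMI the ratio of Mt1 and Mt2 was 1.02 (0.894 to 1.16) and that of Mt3 0.80 (0.522 to 1.19). Mt2 then stood at 40.4 CPM (29.9 to 53.4) with Il1rl1 and 19.2 (15.6 to 23.6) without.

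The mix of the members differed between lineages more than within CD8 cells. Mt2 made up 15.2% of Mt1 and Mt2 UMIs in CD8 cells (13.4 to 17.2), between 12.8% and 16.3% in the 4 CD8 classes, against 8.34% in Treg cells (7.26 to 9.51) and 10.9% in Tconv cells (8.17 to 14.2). Treg cells with Il1rl1 stood at 13.4% (10.6 to 16.6) and those without at 6.94% (5.84 to 8.18). In the macrophage or monocyte barcodes of the pool Mt2 made up 2.08% (1.17 to 3.41), with 15 Mt2 against 705 Mt1 UMIs. In the 8 melanoma barcodes it made up 16% (10.8 to 22.4) and in barcodes under 200 genes 13.7% (9.09 to 19.6), both within reach of the CD8 share. The macrophage or monocyte barcodes had 0 Mt3 UMIs (0 to 6.35 CPM), as had the antigen presenting and melanoma barcodes, although the latter had only 142 Mt1 UMIs. Barcodes under 200 genes had a Mt3 share of 5.42% (2.51 to 10.0), whereas Mt3 made up 9.10% of Mt1 and Mt3 UMIs in CD8 cells (7.61 to 10.8), 10.9% in Treg cells (9.65 to 12.1) and 14.6% in Tconv cells (11.5 to 18.2). Mt1 and Mt2 are close in sequence, so a part of their split can depend on how reads were assigned.

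**Figure D3:**
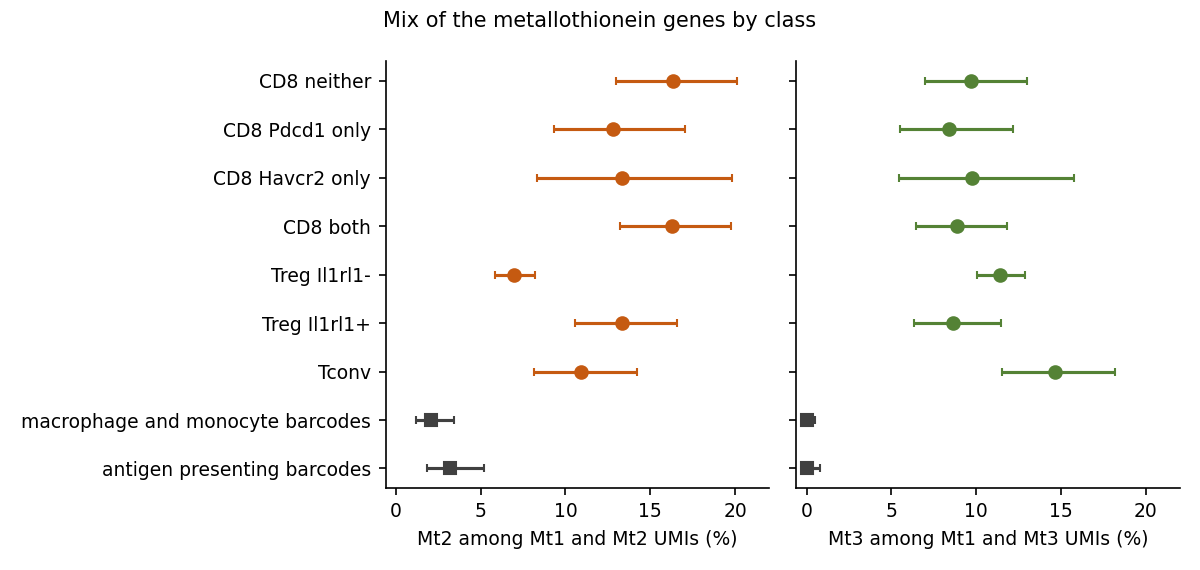
Share of Mt2 among Mt1 and Mt2 UMIs (left, percent) and of Mt3 among Mt1 and Mt3 UMIs (right, percent), with exact binomial 95% intervals, for T cell classes (circles) and for barcodes of the same pool with macrophage, monocyte or antigen presenting markers and no CD3 UMI (squares). The 2 non-T groups hold no Mt3 UMI and stand at 2.08% and 3.22% for Mt2.

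Mt1 and Mt2 were found in the same cells more often than their shares give. Among thinned CD8 cells, 13 held both a Mt1 and a Mt2 UMI where the product of their shares gives 3.24 cells, a factor of 4.02. Among Treg cells 46 did where the product gives 13.5, a factor of 3.40, and among Tconv cells 6 where it gives 0.964. Put as shares, 9.77% of CD8 cells with Mt1 also had Mt2, against 1.47% of those without Mt1, and the same shares were 11.5% and 1.54% in Treg cells. Mt1 and Mt3 met in 11 CD8 cells against a product of 3.35 (a factor of 3.28), and in 23 Treg cells against 15.6 (a factor of 1.48). The CD8 value did not hold at 1000 UMIs, where 1 cell held both against a product of 1.53, and in Tconv cells the pair met in 3 cells against 1.48 at 1500 UMIs and in 0 against 0.923 at 1000. Mt2 and Mt3 met in 4 CD8 cells against 0.705 and in 7 Treg cells against 2.85. These counts describe cells of equal depth and 1 library.

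Within each lineage, cells with at least 2 thinned Mt1 or Mt2 UMIs (called Mt-positive here) were set beside cells with none. In CD8 cells there were 45 and 1003 of these, in Treg cells 157 and 1729, and in Tconv cells 18 and 1345. Before thinning, Mt-positive CD8 cells were deeper, with a median of 5877 UMIs against 3672 in those with none. The medians were 3341 and 3098 in Treg cells and 2546.5 and 2778 in Tconv cells. Thinning evens the counts and not other traits of deeper cells, whose part in the CD8 ratios was not tested. Of 3500 genes with at least 50 UMIs in CD8 cells, 5.51% were at least 2-fold higher and 20.4% at most 0.5-fold in Mt-positive cells. In Treg cells these were 2.03% and 6.5% of 5619 genes, and in Tconv cells 16.6% and 27% of 4482. The Tconv set is small and its ratios are the least precise. Low ratios of genes near the minimum are imprecise in CD8 cells too, where 0 UMIs against 53 gave an interval of 0 to 1.61.

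Among the genes that passed the minimum in CD8 cells, the 10 with the highest ratio fell into a few kinds. Prf1, which encodes the pore-forming perforin, was 6.13 times as high in Mt-positive cells (4.11 to 8.92) and Gzmc, a granzyme, 6.04 times (3.96 to 9.0). Hilpda, a lipid droplet protein induced by low oxygen, was 7.62 times as high (5.21 to 10.9) and Bnip3, a mitophagy gene of the same response, 4.74 times (2.14 to 9.51). Fabp5, a fatty acid carrier, stood at 5.42, the linker histone H1f0 at 4.40, the cell cycle inhibitor Cdkn1a at 4.38 and AA467197 at 7.43. The 2 highest, the chemokine Cxcl2 at 10.0 (6.33 to 15.5) and osteopontin, Spp1, at 9.91 (5.86 to 16.3), are known from macrophages. Some ratios were lower without cells with a UMI of the 8 myeloid genes named above. Hilpda then stood at 3.41 (1.51 to 6.80), Fabp5 at 2.56 (0.504 to 8.09) and Gzmc at 5.34 (2.63 to 9.93). Prf1 and Bnip3 stood higher without these cells, at 9.08 and 6.93.

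In Treg cells the highest ratios were held by Ctsl, a lysosomal protease, at 7.34 (3.95 to 13.4), the chemokine Ccl6 at 6.28 (4.60 to 8.51), Arg1, the arginase of suppressive macrophages, at 5.71 (3.48 to 9.18), and the class II genes H2-Aa at 4.21 and H2-Ab1 at 3.44. Hmox1, the heme-degrading enzyme, followed at 3.48 (1.65 to 6.80), as did Ripk3, a kinase of necroptosis, at 3.83, Tm7sf3 at 3.44 and Tarbp2 at 3.07. Mt3 itself ranked 9 of 5619, at 76.4 CPM in Mt-positive against 24.3 CPM in Mt-negative Treg cells, a ratio of 3.15 (1.75 to 5.38). In Tconv cells Lyz2, the lysozyme of myeloid cells, led at 31.8 (21.0 to 47.2), followed by Cxcl2 at 29.4, Il1rn at 12.2, Cndp2 at 12.0, the growth factor Areg at 10.0 and Lag3, an inhibitory receptor, at 8.46. Irf8, Wls, Il2ra, which encodes CD25, and Plin2 closed the 10 at between 7.35 and 8.21. Of the 18 Mt-positive Tconv cells, 15 held no myeloid UMI. The 37 Lyz2 and 35 Cxcl2 UMIs of this set thus lay in the few others, a spread that the counting intervals do not cover. Without cells with a myeloid UMI, Areg stood at 5.03 (2.98 to 7.996) in Tconv cells, Lag3 at 8.16 and Il2ra at 6.79. Areg then had 19 UMIs in Mt-positive cells, against 55 before. Mt3 then stood at 2.81 (1.27 to 5.63) in Treg cells and at 19.5 (6.42 to 55.2) in CD8 cells, there on 7 and 11 UMIs. Cxcl2 was the one gene among the highest 10 of more than 1 lineage. Each list holds only genes that passed the minimum of UMIs in its lineage, which limits the overlap. Some of the Treg genes above fell under it in CD8 cells but stood high there. Ctsl stood at 16.3 (8.52 to 30.6), Hmox1 at 13.9 (5.65 to 32.6) and H2-Ab1 at 7.96 (2.24 to 23.4). These rest on 19, 10 and 5 UMIs in Mt-positive CD8 cells. Ripk3 had 0 UMIs in those cells and Tm7sf3 stood at 1.17.

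Myeloid transcripts moved with Mt1 and Mt2 here. The 6 macrophage markers stood at 178 CPM in Mt-positive and 122 CPM in Mt-negative CD8 cells, a ratio of 1.45 (0.738 to 2.60), at 1.72 (1.19 to 2.42) in Treg cells and at 18.7 (12.8 to 26.7) in Tconv cells. The Tconv ratio rests on 39 UMIs in Mt-positive cells, of which 1 lay in the 15 cells without a UMI of the 8 myeloid genes. The antigen presenting genes gave 4.55 (3.14 to 6.45), 1.99 (1.74 to 2.27) and 1.66 (0.879 to 2.86). Whether these came from joined droplets, free RNA or the T cells themselves was not tested. Some of the values below are also given without the cells that held a UMI of the 8 myeloid genes named above, and the plot of the lists shows each list that way for CD8 and Treg cells.

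Hypoxia genes were higher in Mt-positive cells. Of 14 on the list, 8 passed the minimum of 50 UMIs in CD8 cells and 4 were at least 2-fold higher, against 5.51% of all genes. These were Hilpda, Bnip3, the glycolytic enzyme Pgk1 at 2.98 and P4ha1, a collagen hydroxylase, at 2.89. The median was 2.38, against a median of 0.908 over all genes. Summed over the list, the ratio was 2.54 (2.23 to 2.88) in CD8 cells and 2.0 (1.65 to 2.42) without cells with a myeloid UMI. In Treg cells 1 of 11 was at least 2-fold higher (Bnip3 at 2.47), against 2.03% of all genes. The median there was 1.48 against 0.983 over all genes, and the summed ratio was 1.45 (1.36 to 1.55), or 1.41 (1.30 to 1.53) without cells with a myeloid UMI. In Tconv cells the summed ratio was 1.15 (0.887 to 1.48), or 1.31 (0.992 to 1.70) without them.

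Effector and inhibitory receptor genes stood higher as well. Of the granzyme and perforin list, 3 of 5 were at least 2-fold higher in Mt-positive CD8 cells (Prf1, Gzmc and Gzmb at 2.83), against 5.51% of all genes. The others, Gzmk and Gzma, stood at 1.18 and 1.07, and the median was 2.83. The summed ratio was 2.17 (1.94 to 2.43), and 2.54 (2.21 to 2.90) without cells with a myeloid UMI. Of the inhibitory receptor and exhaustion list, 4 of 7 were at least 2-fold higher, against the same 5.51% of all genes. They were Lag3 at 3.75, the costimulatory receptor Tnfrsf9 at 3.28, Ctla4 at 2.24 and the transcription factor Prdm1 at 2.23, while Tox, Tigit and Nr4a2 lay between 0.846 and 1.26. The summed ratio of this list was 2.16 (1.80 to 2.58) in CD8 cells, 1.38 (1.30 to 1.47) in Treg cells and 3.0 (2.41 to 3.70) in Tconv cells, and 2.27, 1.49 and 2.75 without cells with a myeloid UMI. Lag3 stood highest of these in each lineage, at 2.10 in Treg cells.

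Genes of naive and memory cells stood at the other end. All 7 passed the minimum in CD8 cells and all 7 were at most 0.5-fold in Mt-positive cells, against 20.4% of all genes. Their median was 0.145. Tcf7, the transcription factor of stem-like cells, was at 0.235, the lymph node homing receptor Ccr7 had 0 UMIs against 133, Il7r was at 0.0913 and Klf2, which keeps cells in circulation, at 0.422. The summed ratio was 0.290 (0.195 to 0.416) in CD8, 0.785 (0.693 to 0.887) in Treg and 0.596 (0.417 to 0.826) in Tconv cells, and 0.214, 0.720 and 0.616 without cells with a myeloid UMI.

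The zinc transporter lists had few UMIs. No zinc exporter passed the minimum in CD8 cells, and summed they gave 6 and 131 UMIs, a ratio of 1.02 (0.368 to 2.28). Zinc importers gave 1.36 (0.608 to 2.64) and the metal sensing and copper list 1.25 (0.949 to 1.62), where 0 of 4 passed 2-fold in either direction. In Treg cells, with more UMIs, exporters gave 0.654 (0.343 to 1.14), and both that passed the minimum were at most 0.5-fold, against 6.5% of all genes: Slc30a7 at 0.310 (0.0369 to 1.16) and Slc30a9 at 0.175 (0.00436 to 1.01), on 2 and 1 UMIs in Mt-positive cells. Importers gave 1.39 (1.02 to 1.85) there and metal sensing genes 0.944 (0.804 to 1.10). Oxidative stress targets gave 1.66 (1.32 to 2.07) in CD8 cells, and 1.33 (0.943 to 1.84) without cells with a myeloid UMI. Of the 4 targets that passed the minimum there, 0 were at least 2-fold higher. Hmox1, which fell under the minimum, stood at 13.9 (5.65 to 32.6) over all CD8 cells, on 10 and 16 UMIs. The glucocorticoid list gave 1.22 (0.924 to 1.59) in CD8 and 0.993 (0.886 to 1.11) in Treg cells, with Tsc22d3, its best-known target, at 0.661 and 0.822. Cell cycle genes gave 1.18 (0.749 to 1.78) and 1.12 (0.863 to 1.42).

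**Figure D4:**
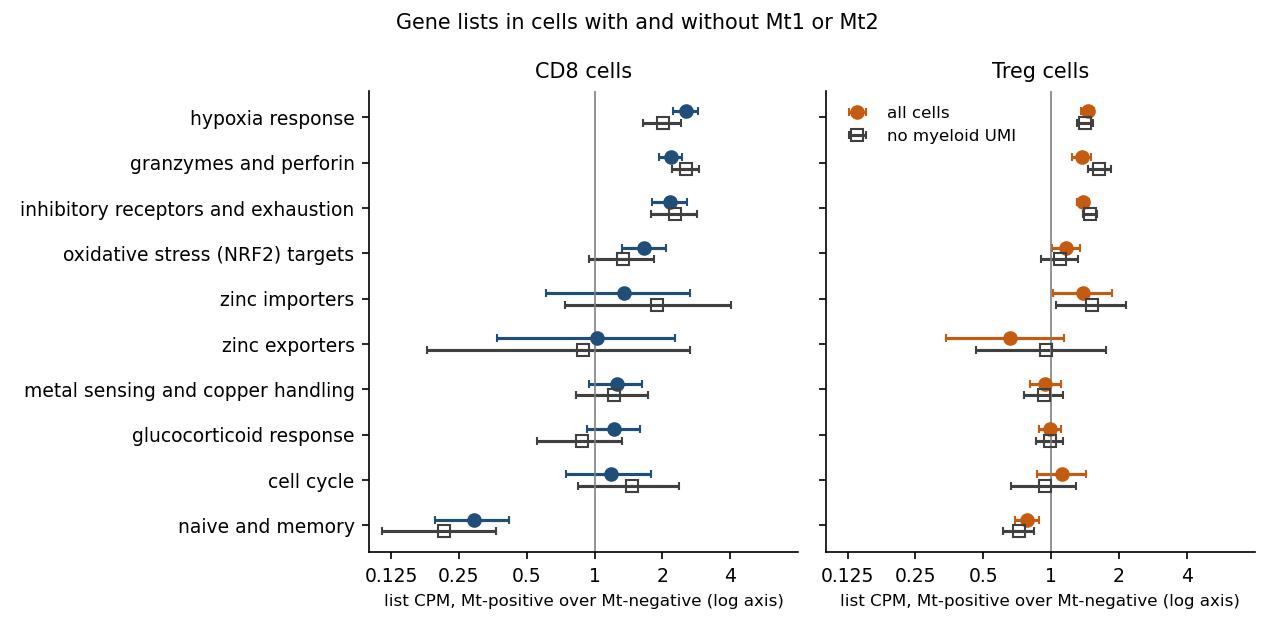
Summed level of each gene list in Mt-positive cells (at least 2 Mt1 or Mt2 UMIs of 1500) over Mt-negative cells (0), on a log axis with exact 95% counting intervals, for CD8 cells (left) and Treg cells (right). Filled circles use all cells and open squares leave out cells with a UMI of 8 myeloid genes. Hypoxia, granzyme and inhibitory receptor lists lie right of 1 in both lineages and the naive and memory list left of it.

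Between CD8 cells with both receptors and with neither, the effector, inhibitory receptor, hypoxia and naive lists lay on the same side of 1 as in Mt-positive cells, at a background of 2.89% at least 2-fold higher and 7.36% at most 0.5-fold. Granzymes and perforin were at least 2-fold higher in 5 of 7 (Gzmc at 15.8, Gzmf at 11.8), inhibitory receptors in 5 of 8 and hypoxia genes in 3 of 10 (Ankrd37 at 3.41, Pgk1 at 2.89 and Ndrg1 at 2.69). Zinc exporters were so in 0 of 3 and zinc importers in 0 of 2. All 7 naive and memory genes were at most 0.5-fold, as were 4 of 7 glucocorticoid genes, Tsc22d3 at 0.305 among them. The glucocorticoid list summed to 0.596 (0.528 to 0.672) here, the antigen presenting genes to 0.308 (0.230 to 0.406) and the cell cycle genes to 1.79 (1.58 to 2.02), unlike in Mt-positive CD8 cells. These classes and the Mt-positive set share cells, so the 2 comparisons are not separate lines of evidence.

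NKT cells had the lowest level. They held 3 Mt1 UMIs, 1 in each of 3 cells, 0 Mt2 and 0 Mt3 UMIs among 278310 UMIs, where Tconv cells without Zbtb16 stood at 79.2 CPM for Mt1. The ratio of Mt1 and Mt2 was 0.121 (0.0249 to 0.357). Of 7198 genes, 3.33% were at least 2-fold higher and 12.7% at most 0.5-fold in NKT cells, and Mt1 ranked 7043 from the top. All 3 UMIs lay in cells with the invariant alpha chain. The 72 cells of any class with that chain, a choice that does not rest on Zbtb16, held 11 Mt1 or Mt2 UMIs, or 44.4 CPM (22.2 to 79.5), and 0 Mt3 UMIs. For a gene with 0 UMIs the 3 UMIs that a count of 0 allows would be 10.8 CPM in the NKT class, so a difference from the 9.72 CPM of Mt2 in Tconv cells was not detectable at this depth. The Mt3 level of Tconv cells, 13.6 CPM, lies just above that floor, and the interval of the Mt3 ratio runs from 0 to 1.0. Macrophage markers stood at 241 CPM in NKT and 181 CPM in Tconv cells.

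The genes whose level was most like that of Mt1 and Mt2 over the 8 classes were, of 8575 with at least 100 UMIs, Cenpf, a centromere protein, with a correlation of 0.989 on log2(CPM + 10), then the respiratory chain genes Atp5j2 (0.988), Ndufb8 (0.987) and Ndufa13 (0.987) and Psph, an enzyme of serine synthesis (0.984). Mt3 ranked 9 with 0.976. The 8 points come from 1 library and differ in depth, and Atp5j2 ranged only from 431 to 659 CPM over them.

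T cell receptors split CD8 cells by clone. Of 921 CD8 cells with a clonotype, 721 were the sole CD8 cell of theirs and 200 fell into 73 clones of at least 2. Mt1 and Mt2 summed to 269 CPM (251 to 287) in the former and 293 (260 to 330) in the latter, a ratio of 1.09 (0.951 to 1.25), or 1.26 (1.08 to 1.47) without the richest cell of each. The share of cells with a UMI was 21.4% (18.4 to 24.5) and 32.0% (25.6 to 38.9), at medians of 3980 and 4402 UMIs. Mt3 differed more, at 17.9 CPM (13.5 to 23.1) against 49.0 (36.0 to 65.2), a ratio of 2.75 (1.83 to 4.11). Of the 47 Mt3 UMIs in cells of clones of at least 2, 1 cell of the largest clone held 8 and another held 6. The Mt3 ratio without these cells was not computed. Clones were unlike each other. The largest, of 13 cells, held 82 Mt1 and Mt2 UMIs in 8 of its cells, 43 of them in 1 cell, and stood at 1036 CPM, while the 12 clones of 4 to 8 cells ranged from 0 to 1017 CPM.

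The tumors of origin could be compared only thinly. The hashtag library held 1730 UMIs of a tag against 22837655 that mapped to none, and cells were assigned to a tumor only where every tag UMI they held, 1 or more, named that tumor. In Treg cells Mt1 and Mt2 stood at 288 CPM (255 to 324) in 245 cells of B16 and 558 (454 to 678) in 55 cells of B16-IL33, a ratio of 1.94 (1.53 to 2.44). Each tumor had tags numbered 1 and 2, and the labels do not say what the numbers stand for. The Treg ratio turned with the tag. By the tags numbered 1 it was 0.210 (0.0671 to 0.50) and by the tags numbered 2 it was 3.54 (2.69 to 4.64). In CD8 cells the levels were 94.6 CPM in 103 cells and 166 in 19, a ratio of 1.76 (0.881 to 3.31), and in Tconv cells 123 in 164 and 45.0 in 17, a ratio of 0.367 (0.0434 to 1.39). No direction between the tumors is read from these values.

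**Figure D5:**
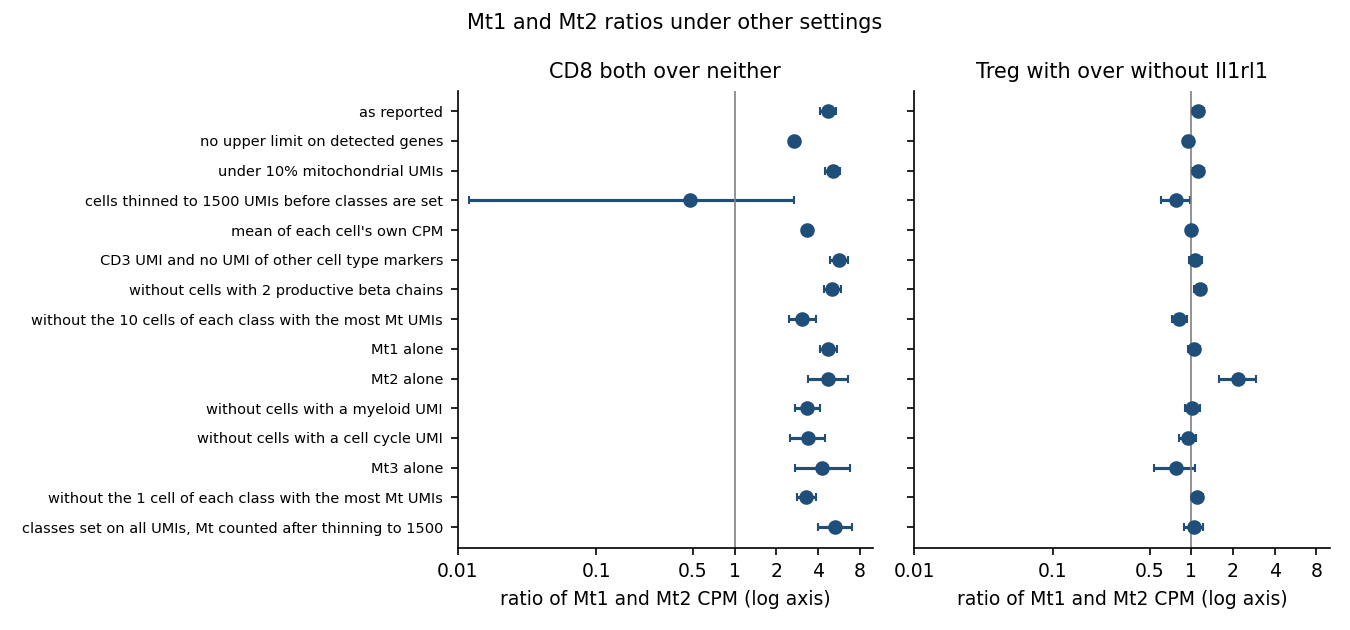
Ratio of summed Mt1 and Mt2 levels, or of the 1 gene named, under each other setting, on a log axis with exact 95% counting intervals where one can be given, for CD8 cells with both receptors over neither (left) and Treg cells with over without Il1rl1 (right). The CD8 ratio lies between 2.70 and 5.65 except where cells are thinned before they are classed, when it is 0.477, and the Treg ratio lies on both sides of 1.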

How the data were processed

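Single-cell 5′ gene expression, hashtags and T cell receptors were read from 1 pool of sorted mouse T cells. The authors deposited raw UMI counts per gene and barcode, aligned to a joint human and mouse reference with Cell Ranger (3.1.0 in the matrix header, 6.1.1 in the submitters' processing notes, mm10), of which the mouse genes were used, as well as counts of hashtag UMIs and a table of receptor contigs. A total of 9078 barcodes with 26606999 mouse UMIs were kept, with 254 to 14063 UMIs each. Libraries were joined by barcode: 11756 barcodes occurred in both the gene expression and hashtag tables and 6665 in both the gene expression and receptor tables.

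Counts were summed per class and given as CPM with exact Poisson intervals, ratios with exact conditional binomial intervals and shares with Clopper-Pearson intervals (95%). For shares, each cell was thinned at random to 1500 UMIs, and shallower cells were left out. Ratios across genes used genes with at least 50 UMIs over both sets. The genes named are the members, Mt4, the listed genes, the 10 with the highest ratio in each lineage and the 5 whose level was most like that of Mt1 and Mt2. A few further genes, such as Lyz2 and the complement genes, were named after their values were seen. Members, lists and rules were chosen with earlier results of these data known. No test was made, since the pool is 1 library and its cells are not replicates. Doublets were not called: cells with 2 productive beta chains or markers of other cell types were left out as alternatives. The code was tested on simulated data. Python 3.11.15, NumPy 2.4.6, SciPy 1.17.1 and pandas 2.3.3 were used.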

Additional observations from a re-analysis of the deposited data

Results flagged for a closer look

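Barcodes above 2500 detected genes were outside the comparisons and held a strong signal. The 278 of them that met the CD8 rule stood at 1067 CPM of Mt1 and Mt2 (1037 to 1098), against 280 CPM in the CD8 cells that were kept, and at 71.4 CPM of Mt3 (63.8 to 79.6), against 23.7. Both lie above the level of the kept cells, which is why they are given here. Among them, 152 with both Pdcd1 and Havcr2 stood at 1216 CPM and 29 with neither at 1864 CPM, so the order of these classes was the opposite of that below the limit. For Mt3 it was not, at 93.8 and 12.1 CPM. Treg barcodes above the limit stood at 851 CPM of Mt1 and Mt2 and Tconv barcodes at 1495 CPM. Whether these barcodes hold more than 1 cell was not tested.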

How the results depend on the processing

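Values are ratios of Mt1 and Mt2 unless said otherwise. Leaving out cells with a myeloid or cell cycle UMI or the 1 richest cell, taking Mt3 alone and thinning Mt after classing were chosen after seeing the data. For CD8 cells with both receptors over neither (4.74), the ratio was 2.70 with no upper limit on genes, 3.34 as a mean over cells, 5.65 in cells with a CD3 UMI and no other marker and 3.08 without the 10 richest cells of each class. It was 0.477 (and 0 for Mt3) where cells were thinned before they were classed, which left 10 cells with both receptors. It was 3.35 without cells with a myeloid UMI, 3.38 without cells with a cell cycle UMI and 3.29 without the 1 richest cell. For Treg cells with over without Il1rl1 (1.12), the same settings gave 0.951 with no upper limit, 0.773 thinned before classing, 0.994 as a mean over cells and 0.818 without the 10 richest, and 2.16 for Mt2, 0.945 without cell cycle UMIs and 0.770 for Mt3, so the direction was not stable.

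For CD8 over Treg cells (0.958), the values were 1.49 with no upper limit (1.23 for Mt3, against 0.729), 0.617 thinned before classing, 0.829 as a mean over cells, 0.660 without the 10 richest, 0.886 for Mt1, 1.75 for Mt2, 0.726 without myeloid UMIs, 0.574 without cell cycle UMIs, 0.729 for Mt3, 0.833 without the richest cell and 0.611 with Mt thinned after classing. For CD8 over Tconv cells (3.20), in the same order, they were 2.51, 1.84, 2.19, then 4.32 with a CD3 UMI and no other marker, 2.52 without the 10 richest, 4.45 for Mt2, 2.46 without myeloid UMIs, 1.89 without cell cycle UMIs, 1.78 for Mt3, 2.87 without the richest cell and 2.75 with Mt thinned after classing. NKT over Tconv cells (0.121) gave 0.509 with no upper limit and 0 for Mt2 and for Mt3. It was also 0 without the 10 richest cells, which holds no information since 3 NKT cells held any Mt UMI.

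The share of CD8 cells with Mt1 or Mt2 was 22.9% without thinning, and co-detection in Treg cells was 4.61 times the product at 1000 UMIs. The tumor ratio in Treg cells was 0.210 by the tags numbered 1 and 3.54 by those numbered 2. The clone ratio was 1.34 for at least 3 cells and 1.26 without the richest cell. Genes at least 2-fold higher in Mt-positive cells numbered 193, 114 and 743 in CD8, Treg and Tconv cells, and 32, 11 and 110 with a minimum of 200 UMIs, which compares fewer genes, or 68, 47 and 157 where 1 Mt UMI sufficed. The cause of the other shifts was not tested. Depth limits Mt2 in NKT cells. No paired analysis was possible because all classes come from 1 library and no test was made.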
